A study of Arabidopsis thaliana with 2 samples.

Results

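The alpha- and beta-tubulin genes of Arabidopsis thaliana were followed in shoots grown with or without N-1-naphthylphthalamic acid (NPA), which inhibits polar auxin transport. Members were all genes whose symbol in the array annotation begins with TUA or TUB followed by a digit. Where a gene had several probe sets annotated to it alone, the brightest was taken. This gave 7 genes of 13356 with such a probe set: the alpha-tubulin genes TUA1 and TUA6 and the beta-tubulin genes TUB1, TUB5, TUB6, TUB7 and TUB9. A further 2 alpha-tubulin genes, TUA3 and TUA5, were named only together, on 1 shared probe set, which is described beside the 7 and kept out of their counts. The TAIR10.1 gene table lists 15 alpha- and beta-tubulin genes. The other 6 (TUA2, TUA4, TUB2, TUB3, TUB4 and TUB8) were not named in the array annotation, so they were not analysed here.

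Both groups were shoots of ecotype Col-0 about 2 weeks old, at stage 1.04 with about 6 rosette leaves, from plants grown on agar medium at about 20 °C with 16 h of light. The DMSO group had an equal volume of the solvent alone, and the NPA group had NPA dissolved in DMSO. The dose of NPA was not settled, since the treated sample's notes state 10 uM and the protocol common to both samples states 10 mM. Each group was 1 Affymetrix ATH1 array, so no value below has a replicate, an error or a test, and precision is limited by the array number. Fold differences describe these 2 arrays only.

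Alpha- and beta-tubulin pair into the dimer from which microtubules are built, and plants make each subunit from a small gene family whose members differ in tissue and stage. In growing plant cells the microtubules lie under the plasma membrane, where they guide the movement of cellulose synthase and so the orientation of new wall. In developing xylem they bundle beneath the bands of the secondary wall. The series title names vascular overgrowth induced by NPA, so the comparison asks whether tubulin transcripts differed between shoots with and without it.

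None of the 7 tubulin genes reached 2-fold in either direction, against 5.88% of the 7753 measured genes, 3.75% higher with NPA and 2.13% lower. A measured gene was one whose signal passed the array's 40th percentile, the floor, on at least 1 array. TUB6 and TUB1 had the highest ratios with NPA, at 1.61-fold and 1.56-fold. TUA6, TUB9, TUB7 and TUB5 lay within 0.25 of 0 on the log2 scale, as did 42.3% of measured genes. TUA1 was 1.29-fold lower, the lowest ratio of the 7.

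**Figure D1:**
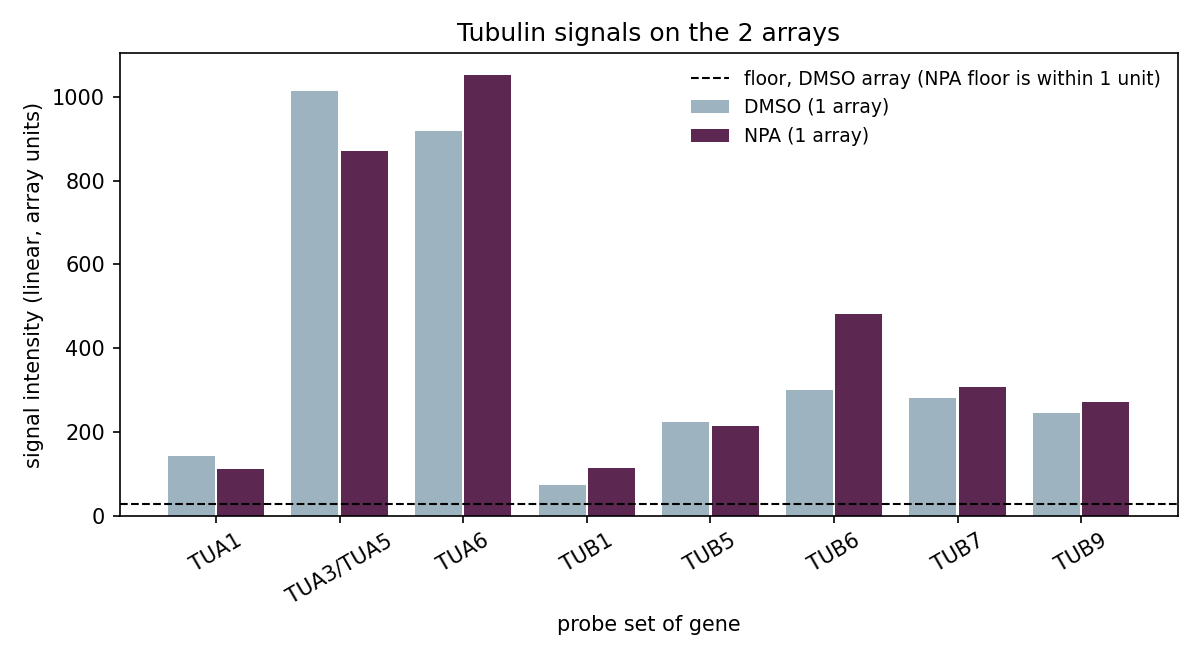
Signal intensity on a linear scale for the 7 tubulin genes with a probe set of their own and for the probe set shared by TUA3 and TUA5, with 1 bar for the DMSO array and 1 for the NPA array. The dashed line is the floor of the DMSO array, 28.3, and all bars lie above it. Bars carry no error because each group is 1 array, and bar heights of different genes are not comparable as transcript levels.

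All 7 genes were above the floor, which was 28.3 on the DMSO array and 27.9 on the NPA array, on both arrays. TUB1 came closest to it, at 2.60 times the floor with DMSO, and TUA6 was farthest, at 37.7 times with NPA. Each gene was read by 1 probe set. Probe sets differ in how strongly they bind, so signals are given side by side for each gene and their order by signal is no order of transcript abundance. In whole shoots, a lower signal from fewer cells of a type and from less RNA per cell cannot be told apart.

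Among the alpha-tubulin genes, TUA6 (AT4G14960) had a signal of 919 with DMSO and 1052 with NPA. TUA6 encodes a subunit in which lefty mutations twist the growth axis, and its fusion to a fluorescent protein is a common microtubule marker. The NPA signal was 14.5% higher, a log2 ratio of 0.20. Genes of like brightness were mostly lower on the NPA array: the 500 measured genes nearest to TUA6 in mean signal had a median log2 ratio of -0.21. Of these 500, 132 had a ratio at least as high as TUA6.

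The probe set shared by TUA3 (AT5G19770) and TUA5 (AT5G19780) had the lower signal with NPA, 871 against 1013 with DMSO. The gene table places these genes side by side, with 0 protein-coding genes between them, and the array cannot separate their transcripts. The log2 ratio of -0.22 was close to the median of -0.21 in the 500 genes nearest in signal. TUA6 and TUA3/TUA5 therefore differed by 0.41 on the log2 scale, with TUA6 higher.

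TUA1 (AT1G64740), known mainly as a pollen-expressed alpha-tubulin, had a signal of 144 with DMSO and 112 with NPA. The log2 ratio was -0.36. Of measured genes, 21.8% had a ratio as low or lower, as did 102 of the 500 nearest in signal. Both TUA1 and the shared probe set were lower with NPA and TUA6 was higher, so the alpha-tubulin signals did not all lie on one side of 0. The median over TUA1 and TUA6 was -0.08, and over all 3 alpha-tubulin probe sets it was -0.22.

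Among the beta-tubulin genes, TUB6 (AT5G12250) had a signal of 300.0 with DMSO and 483 with NPA. TUB6 is often used as a reference gene in Arabidopsis PCR work. Its log2 ratio of 0.69 was the highest of the tubulin genes read here. Of measured genes, 8.44% had a ratio at least as high, and so did 55 of the 500 genes nearest in signal.

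TUB1 (AT1G75780) had a signal of 73.5 with DMSO and 115 with NPA. TUB1 is known for expression in roots and in hypocotyls and for being lowered by light. Its log2 ratio of 0.64 differed from that of TUB6 by 0.04. Of measured genes, 9.54% were at least as high, as were 56 of the 500 nearest in signal. The root and hypocotyl gene PYK10 had 609 with DMSO and 425 with NPA, a log2 ratio of -0.52 that was opposite in sign to TUB1. The shoot genes PRK and LHCB4.1 were also lower with NPA, at -0.50 and -0.27. PYK10 was therefore not alone among these marker genes in being lower. Whether the share of root or hypocotyl tissue in the samples bears on TUB1 was not tested.

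The other beta-tubulin genes were close to equal on the 2 arrays. TUB9 (AT4G20890), known mainly from pollen, had 245 with DMSO and 273 with NPA. TUB7 (AT2G29550) had 282 and 307. TUB5 (AT1G20010) had 224 and 215, and was the only measured beta-tubulin gene with the lower signal on the NPA array. Their log2 ratios were 0.16 for TUB9, 0.12 for TUB7 and -0.06 for TUB5. The 2 genes known from pollen, TUB9 and TUA1, lay on opposite sides of 0.

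**Figure D2:**
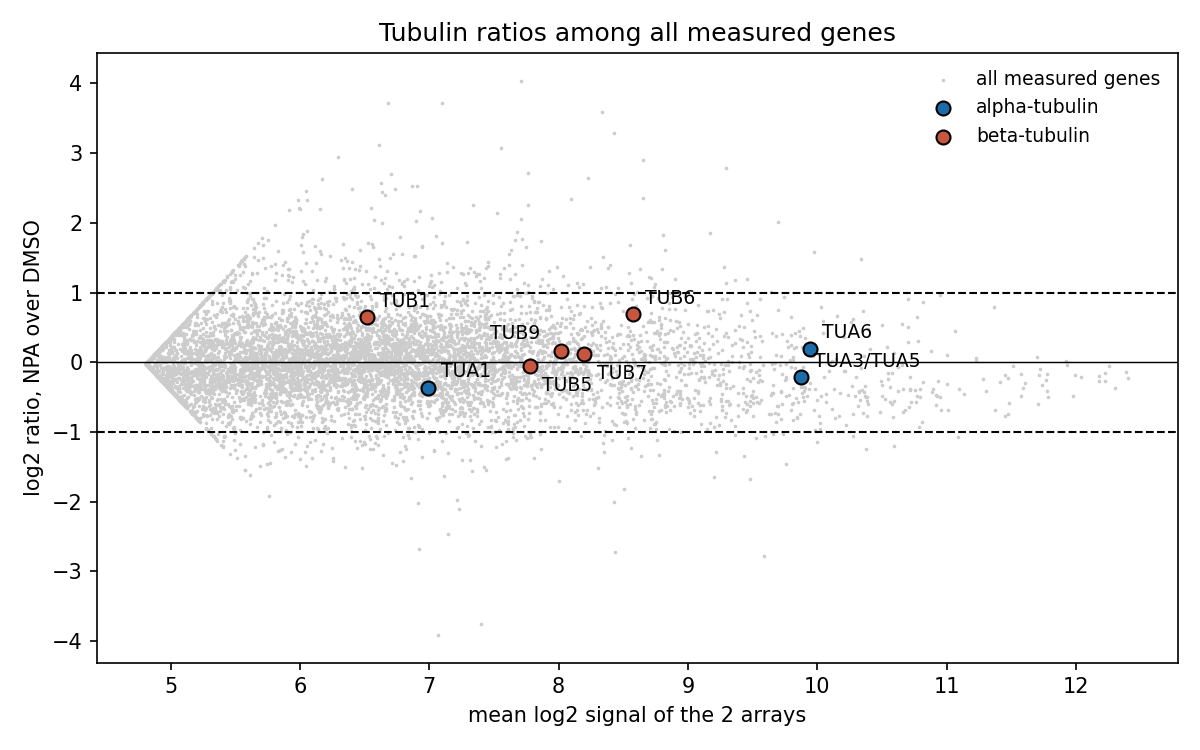
Log2 ratio of NPA over DMSO against the mean log2 signal of the 2 arrays, for all 7753 measured genes in grey and for the tubulin probe sets in blue (alpha) and red (beta). The dashed lines mark 2-fold. All 8 tubulin probe sets lie between them, with TUB6 and TUB1 at the top and TUA1 at the bottom.

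The 7 genes had a median log2 ratio of 0.16, with 5 above 0 and 2 below, beside a median of -0.03 over all measured genes, of which 47.4% were above 0. At 1.5-fold, 2 of the 7 were higher with NPA, TUB6 and TUB1, where 11.2% of measured genes were. None of the 7 was 1.5-fold lower, where 10.6% of measured genes were. The 5 beta-tubulin genes had a median of 0.16, with 4 above 0. With so few members, these counts describe the genes named and do not set the family apart. The plot of ratio against signal shows the same, with the tubulin points inside the bulk of genes of their brightness.

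Of 21 pairs among the 7 genes, 2 had ratios at least 2-fold apart, TUA1 against TUB6 and TUA1 against TUB1, with differences of 1.05 and 1.01 on the log2 scale. That is 9.52% of the pairs, where 16.1% of all pairs of measured genes were as far apart. Both differences lie just past the 2-fold limit, so the count is not firm. With the floor added to both signals, TUA1 was at -0.30, TUB1 at 0.49 and TUB6 at 0.64, and neither pair was 2-fold apart. Within the beta class, TUB6 and TUB5 differed by 0.74. The median difference over the 21 pairs was 0.49. The spread between probe sets of 1 gene comes from 52 genes that have at least 2 probe sets above the floor on both arrays. In these, the highest and lowest log2 ratio of the same gene lay a median of 0.25 apart, and 0.6 or more apart in 9 genes. All these probe sets read the same 2 arrays, so this spread holds no variation between arrays or plants. Of the 21 tubulin pairs, 4 were 0.6 or more apart, a share of 19.0% beside 37.9% of all pairs of measured genes. The 21 pairs reuse the same 7 genes, so these shares do not set the family apart.

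**Figure D3:**
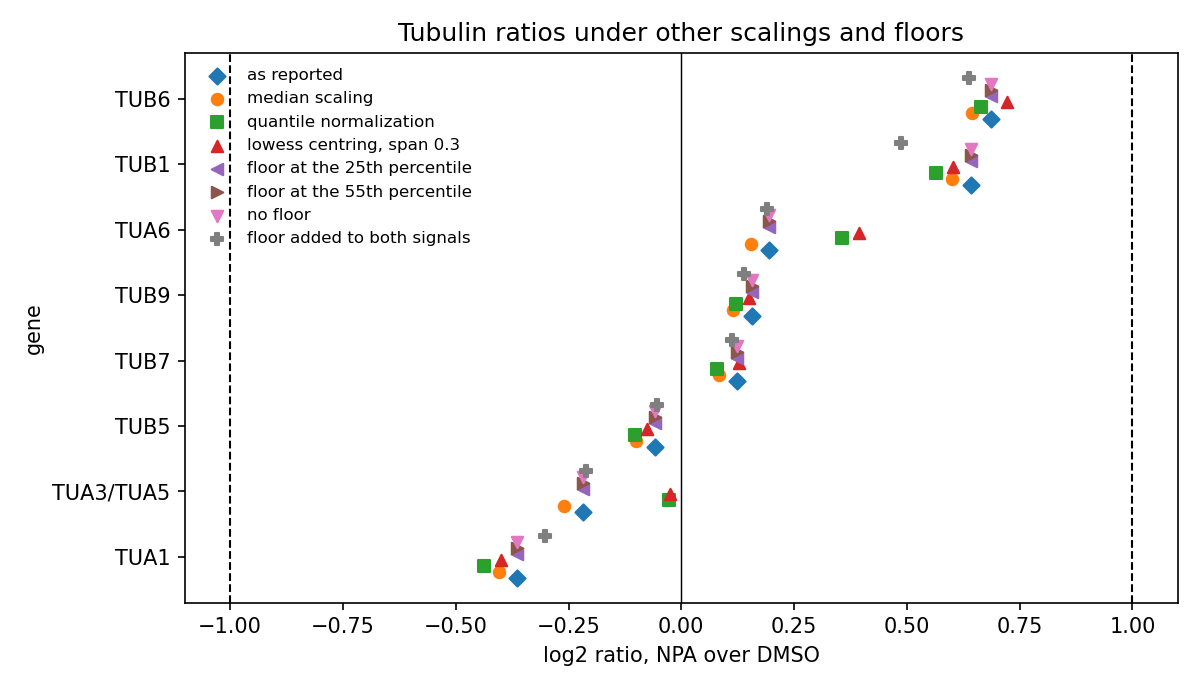
Log2 ratio of NPA over DMSO for each tubulin probe set, by gene, under the reported setting and 7 other scalings and floors, with 2-fold marked by dashed lines. All genes keep their side of 0, and TUA6 and the shared TUA3/TUA5 probe set move farthest, both upward under quantile and lowess scaling.

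The order of the genes depended little on scaling at the ends and more among the bright alpha-tubulins. TUB6 ranged from 0.64 to 0.72 over the settings tried and TUB1 from 0.49 to 0.64, with the lowest TUB1 value when the floor was added to both signals. TUA6 ranged from 0.15 to 0.39 and TUA3/TUA5 from -0.26 to -0.02. TUA1 ranged from -0.44 to -0.30. The highest TUA6 value came from lowess centring, which takes out the lower ratios of bright genes, as the plot of settings shows. TUB5, TUB7 and TUB9 each moved by at most 0.05.

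Genes that act with tubulin were read from lists written by locus. Apart from the genes given here, the listed genes had no probe set annotated to them alone. They were therefore not read, and whether they were expressed is not known from these values. Of 5 tubulin folding cofactors, which assemble the dimer, 2 were measured: PFI (cofactor E) had 69.4 with DMSO and 72.1 with NPA, and PORCINO (POR, cofactor C) had 41.9 and 33.9. Their log2 ratios were 0.05 and -0.30, and that of PFI was -0.01 after quantile normalization. Of 34 microtubule-associated protein genes, 3 were measured. SPR1, which encodes a small protein of microtubule ends needed for straight growth, had 423 and 621, a log2 ratio of 0.55. TON1B, of the complex that organises the preprophase band, had 44.4 and 54.7, and MAP65-6, of the family that cross-links microtubules, had 154 and 141. TON1B and MAP65-6 had log2 ratios of 0.30 and -0.13. With the floor at the 55th percentile, TON1B and POR were below it on both arrays and had no ratio.

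Of 14 kinesin genes, the motor proteins that walk on or take apart microtubules, 1 was measured. KINESIN-13A, which removes microtubules at the pits of xylem walls, had 197 with DMSO and 207 with NPA, a log2 ratio of 0.07. Of 8 loci listed for gamma-tubulin and the ring complex that starts new microtubules, 1 was measured. This was AT5G17410, listed as GCP2, a locus to which the gene table gives no symbol, with 60.4 on the DMSO array and 62.4 on the NPA array. None of the measured cofactor, microtubule-associated or kinesin genes reached 2-fold, where 5.88% of all measured genes did. With so few genes read, this does not set them apart.

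Actin, the other filament system of the plant cell, was represented by 1 measured gene of 8. ACT11, an actin gene known for its expression in reproductive organs, had 215 with DMSO and 127 with NPA, 1.70-fold lower. This log2 ratio of -0.77 was farther from 0 than that of any tubulin probe set read here. ACT12 was below the floor on both arrays, at 1.23 and 1.22. Of 13 genes of cellulose synthesis, COB, which orients cellulose deposition, was the only one with a probe set annotated to it alone. COB had 715 and 552, a log2 ratio of -0.37. The shoot genes LHCB4.1 and PRK, of the light-harvesting antenna and the Calvin cycle, were bright on both arrays, at 5085 and 4230 for LHCB4.1 and 4191 and 2973 for PRK. Both had the lower signal with NPA, with log2 ratios of -0.27 and -0.50. After lowess centring these were 0.10 and -0.16.

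**Figure D4:**
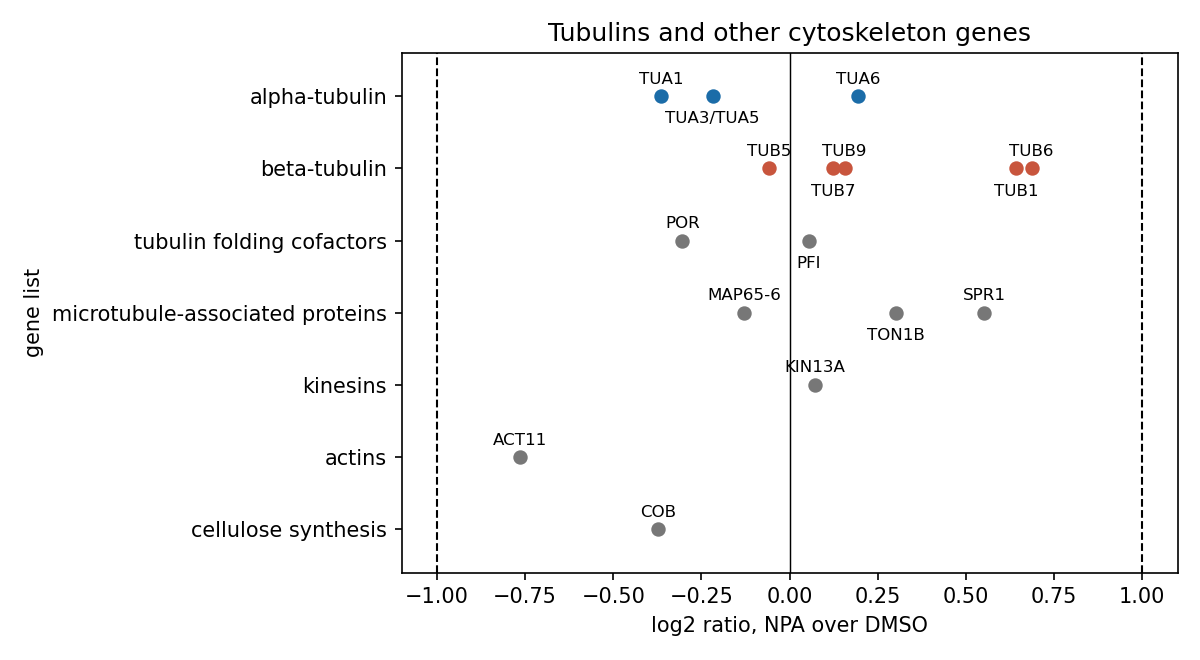
Log2 ratio of NPA over DMSO for the tubulin probe sets and for the measured genes of 5 lists of genes that act with microtubules, actin or cellulose, 1 point per gene, with 2-fold marked by dashed lines. SPR1 lies near TUB1 and TUB6 on the higher side, ACT11 is the lowest point, and all points lie inside 2-fold.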

How the data were processed

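RNA from 2 shoot samples was hybridised to 1 ATH1 array each. The authors deposited a linear signal intensity for each probe set, made with MAS5 and GCOS (no versions given), per the submitters' processing notes. The mean after trimming 2% at each end was 100.0 on both arrays, so they had been scaled alike before deposit. Of 22746 analysed probe sets (64 controls left out), 13513 had 1 gene in the array annotation, 503 several and 8730 none. Signals under each array's 40th percentile were set to it, and log2 ratios of NPA over DMSO were taken with no test. Genes and lists were identified through the TAIR10.1 table, used for names and neighbours only. AT5G17410 (GCP2, of the gamma-tubulin list) was measured, but the table gives it no matching name, so its signals are given without a ratio. Every measured tubulin gene is named, with up to 4 genes per other list. The members and lists were chosen with earlier results of these data known. Alternatives covered scaling, floor, probe set choice and size rule. The steps were tested on simulated data. Python 3.11.15, numpy 2.4.6, pandas 2.3.3, statsmodels 0.14.6 and matplotlib 3.10.9 were used.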

Additional observations from a re-analysis of the deposited data

How the results depend on the processing

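No paired analysis was possible because each group is 1 array, and for the same reason no array could be left out. The count of tubulin genes at 2-fold was 0 under 10 of 11 alternatives, and 2 when the size rule was 1.5-fold, as a looser rule allows. Many of the alternatives could not have changed a count of 0. A 3-fold rule is stricter, and the shared probe set was itself inside 2-fold. The percentile floors, no floor and averaging probe sets left every tubulin ratio as it was. Only the scalings and the floor added to both signals could have raised the count at 2-fold. The alpha-tubulin median was -0.22 with the shared probe set added, which brings in a value below 0, and between -0.13 and -0.0026 otherwise. The median of all 7 genes stayed between 0.12 and 0.16. Of 169 values for 19 named genes or probe sets, 169 moved by less than the SD of the 500 genes nearest in signal, and 0 tubulin values changed sign. That SD was 0.50 to 0.65, wider than most of the ratios themselves, and several settings could not change most values. The count of 169 therefore says little about how stable the ratios are. Of the other genes, LHCB4.1 went from -0.27 to 0.10 after lowess centring and PFI from 0.05 to -0.01 after quantile normalization. PRK, at -0.50, was at -0.16 after lowess centring and -0.20 after quantile normalization. TON1B and POR, with log2 ratios of 0.30 and -0.30, had 0.18 and -0.18 when the floor was added to each signal; at the 55th percentile floor, neither array showed them above it. Floors at the 25th and 55th percentile left the tubulin ratios as they were, since all their signals lay above both, and all 7 genes had 1 probe set, so averaging probe sets changed none of them.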
